A study of Saccharomyces cerevisiae with 16 samples.

Results

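The early phase of the PHO84c culture was set against its own start, at the level of single array probes. It comprised the 3 PHO84c samples taken 1, 5 and 8 h after transfer to fresh medium, and the starting point comprised the 4 PHO84c samples at 0 h. These 7 samples, of 16 in the series, were chosen by strain and time, and the sample at 23 h was not used here. No early time had a second sample, so the 3 times stood in for replicates, and an early mean averages over 1 to 8 h of change.

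PHO84c is, per the labels, a strain of budding yeast with abundant high-affinity phosphate transporters, and the comparison strain is the wild type (WT). The sources used here do not say how the transporter was made abundant, what the strain background was or whether PHO84c is 1 clone. All samples, those at 0 h included, are labelled with 500 µM phosphate, which the labels call an intermediate level. The protocols describe growth to logarithmic phase in synthetic complete medium, a wash and dilution into medium of that phosphate level. The treatment tag reads 0.5 M and was taken as a slip for 0.5 mM. Washing, dilution, phosphate level and time in culture thus changed together between 0 h and the early samples, and their parts cannot be told apart.

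PHO84 is the high-affinity symporter with which yeast takes up phosphate when little is present. When phosphate runs low, the cyclin-dependent kinase complex of Pho80 and Pho85 is inhibited by Pho81, the transcription factor Pho4 enters the nucleus and, with Pho2, turns on the PHO genes. Their products take up phosphate, release it from organic molecules and store it as polyphosphate in the vacuole. The series title asks whether abundant high-affinity transporters delay this response.

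RNA was measured on Agilent dual-colour arrays, and all values below are log2 ratios that appear to be relative to that strain's own 0 h samples of matching dye. Of 6255 probes, 6124 to 6197 had a value in the early samples and 6138 to 6192 in those at 0 h. Values spread by 0.439, 0.374 and 0.325 (SD over probes) at 1, 5 and 8 h, against 0.0772 to 0.123 in the 4 samples at 0 h. The early samples lay on 3 arrays of their own, so time and array cannot be told apart, and the 0 h samples were both channels of 2 arrays. The ratios carry no signal level, and the number of arrays limits the precision.

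A gene name stands for the probe listed under it. Names were listed for 1608 probes, PHO84 was not among them, and the targeted gene was not analysed here. The names themselves could not be checked, and probes listed under cytosolic ribosomal protein names, genes that usually move together, had early changes as scattered as those of all probes (SD 0.340 over 52 probes, against 0.333 over 5957). Of 3 listed a-specific markers, STE6 (the a-factor exporter) rose by 0.66 ± 0.122 (limma adjusted p = 0.0242), while the a-factor genes MFA1 (0.38) and MFA2 (-0.13) lay on opposite sides of 0 and did not pass (adjusted p = 0.187 and 0.677). The 1 alpha-specific probe listed, STE3 (the a-factor receptor), stood at -0.14. Ratios to 0 h do not show which type was present.

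Over the early mean, few probes changed by 2-fold or more, and more of them fell than rose. Of 5957 probes tested, 20 were higher (0.336%) and 37 lower (0.621%) in the early samples than at 0 h, 57 in all (0.957%), with limma's Benjamini-Hochberg adjusted p under 0.05 and a change of at least 2-fold. Such probes are called higher or lower below. All early samples carried the dye Cy3, and the fit had a term for dye. Each early change is thus measured against the Cy3 pair at 0 h, and the Cy5 pair bears only on its spread. Without the 2-fold minimum, 146 rose (2.45%) and 168 fell (2.82%). Listed names made up 6 of the 20 called rises and 10 of the 37 called falls.

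The largest called rise under a name was that of NAT3, the catalytic subunit of the N-terminal acetyltransferase NatB. Its probe read 2.29, 1.16 and 0.99 at 1, 5 and 8 h in PHO84c, against 0.07, -0.05, 0.02 and -0.01 in the 4 samples at 0 h. The early mean differed by 1.47 ± 0.335 (± SE of the limma fit, adjusted p = 0.0433), a 2.77-fold rise. The value at 1 h stood far above those at 5 and 8 h, and all 3 lay above every value at 0 h. The call was lost when any 1 of the 4 samples at 0 h was left out.

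RPD3 encodes a histone deacetylase that acts in large repressor complexes. The probe read 1.24, 1.23 and 1.08 in the early samples, against 0.0085, -0.0045, -0.02 and 0.02 at 0 h. This rise of 1.18 ± 0.117 (limma adjusted p = 0.00345) had the smallest adjusted p among the 6 listed rises, and the 3 times were nearly level. RRD2, an activator of the protein phosphatase PP2A, read 1.04, 1.04 and 1.44 against 0.11, -0.11, 0.08 and -0.08 at 0 h, a rise of 1.17 ± 0.156 (limma adjusted p = 0.00884) that was highest at 8 h.

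CCT6, a subunit of the cytosolic chaperonin that folds actin and tubulin, read 1.35, 1.37 and 0.57 at the 3 early times, against 0.01, -0.0067, 0.01 and -0.0024 at 0 h. The rise of 1.09 ± 0.227 (limma adjusted p = 0.0339) held at 5 h and was down to 42.1% of its 1 h value at 8 h. SUL1, a high-affinity sulfate permease, went the other way with time, with 0.61, 1.07 and 1.51 against -0.11, 0.10, -0.01 and 0.03 at 0 h. It rose by 1.07 ± 0.251 (limma adjusted p = 0.0471), near the limit of the call, and the call was lost without the 8 h sample, in which the probe was highest. ACC1, the acetyl-CoA carboxylase that makes the building block of fatty acids, stayed level at 1.08, 0.96 and 1.07, against -0.06, 0.06, 0.05 and -0.04 at 0 h, a rise of 1.04 ± 0.174 (limma adjusted p = 0.0193).

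**Figure D1:**
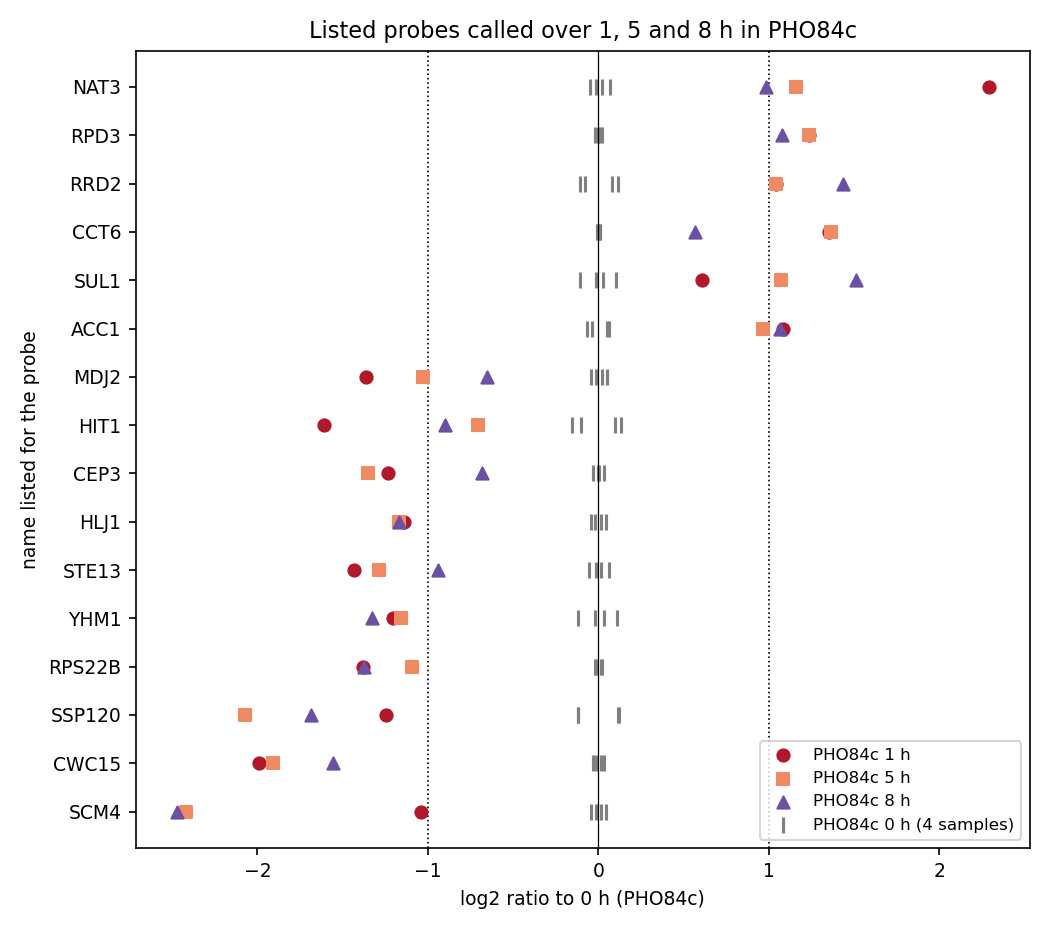
Log2 ratios of the 16 listed probes called over the early mean in PHO84c, with symbols for the samples at 1, 5 and 8 h and grey ticks for the 4 samples at 0 h; dotted lines mark 2-fold. Every early value lies outside the range at 0 h. NAT3 is highest at 1 h (2.29), and SCM4 is lowest at 8 h (-2.47).

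The 2 largest called rises had no listed name. Probe 3850 read 2.44, 1.36 and 1.79 at 1, 5 and 8 h, against 0.05, -0.05, 0.06 and -0.03 at 0 h, a rise of 1.86 ± 0.264 (limma adjusted p = 0.011). Probe 3615 read 2.48, 1.78 and 1.00, against 0.09, -0.08, 0.19 and -0.18 at 0 h, and rose by 1.75 ± 0.370 (limma adjusted p = 0.035). Both were highest at 1 h, and probe 3615 fell off steadily while probe 3850 did not.

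Among the 10 listed falls, SCM4, a protein of the mitochondrial outer membrane, had the largest early change. Its values were -1.04, -2.42 and -2.47 at 1, 5 and 8 h, against 0.05, -0.04, -0.01 and 0.01 at 0 h. The early mean fell by 1.98 on the log2 scale (SE 0.380, limma adjusted p = 0.0284), which is 3.94-fold. The fall was less deep at 1 h than at 5 and 8 h, which lay close together.

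CWC15, a component associated with the spliceosome, read -1.99, -1.91 and -1.55, against -0.03, 0.03, -0.01 and 0.02 at 0 h, a change of -1.82 ± 0.149 (limma adjusted p = 0.00131). It was low at all 3 times and kept 78% of its 1 h value at 8 h. SSP120, a protein of unclear function, read -1.25, -2.07 and -1.69, against 0.11, -0.12, 0.12 and -0.12 at 0 h, and changed by -1.67 ± 0.217 (limma adjusted p = 0.00765), lowest at 5 h.

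Several falls were nearly flat from 1 to 8 h. HLJ1, a co-chaperone of the endoplasmic reticulum membrane, read -1.14, -1.17 and -1.17, against 0.04, -0.04, 0.02 and -0.02 at 0 h (-1.16 ± 0.111, limma adjusted p = 0.00315). RPS22B, a protein of the small ribosomal subunit, read -1.38, -1.09 and -1.37, against 0.02, -0.01, -0.02 and 0.02 at 0 h (-1.29 ± 0.136, adjusted p = 0.00371). YHM1, a carrier of the mitochondrial inner membrane, read -1.20, -1.16 and -1.32, against -0.02, 0.04, -0.12 and 0.11 at 0 h (-1.24 ± 0.159, adjusted p = 0.00765). In these 3 probes the groups were separated by about 1 log2 unit or more.

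The other 4 listed falls were smaller at 8 h than at 1 h. STE13, a dipeptidyl aminopeptidase that matures alpha-factor, read -1.43, -1.28 and -0.94, against 0.06, -0.06, 0.02 and -0.01 at 0 h (-1.22 ± 0.164, limma adjusted p = 0.00884). CEP3, a kinetochore protein that binds centromere DNA, read -1.23, -1.35 and -0.68, against -0.03, 0.03, -0.0011 and 0.0045 at 0 h (-1.09 ± 0.194, adjusted p = 0.022). None of these values overlapped those at 0 h. MDJ2, a co-chaperone of mitochondrial protein import, read -1.36, -1.03 and -0.65, against 0.05, -0.04, 0.02 and -0.02 at 0 h (-1.02 ± 0.193, adjusted p = 0.027). HIT1, an assembly factor of small nucleolar ribonucleoproteins, read -1.61, -0.70 and -0.90, against -0.10, 0.10, -0.15 and 0.13 at 0 h (-1.07 ± 0.247, adjusted p = 0.0448). HIT1 stood closest to the limit of these 4, and its call was lost without any 1 of the 4 samples at 0 h.

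The deepest falls of all were again under no name. Probe 7771 read -2.16, -3.41 and -2.55, against -0.02, 0.03, -0.05 and 0.05 at 0 h, a change of -2.71 ± 0.304 (limma adjusted p = 0.00455). Probe 12985 read -2.94, -2.35 and -2.24, against -0.12, 0.11, -0.08 and 0.08 at 0 h, a change of -2.51 ± 0.206 (limma adjusted p = 0.00131). At the 2-fold limit, probe 11022 lay just inside on the higher side (1.02) and MRS4 just outside (0.98), while probe 13205 lay just inside on the lower side (-1.01) and YHC3 just outside (-0.99).

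The number of calls depended on single samples and on how values were scaled. Without the 5 h sample 34 probes were called, and without the 8 h sample 98. Quantile normalization sets the narrow 0 h samples and the wider early ones to the same averaged distribution. With it, limma called 0 probes (321 at an unadjusted p under 0.05), against 1342 at that p in the values as deposited. Without the 5 h sample the calls of ACC1, CCT6, CEP3, HIT1, MDJ2, NAT3, SCM4, STE13 and SUL1 were lost, and without the 1 h sample those of CCT6, HIT1 and MDJ2. Without the 0 h sample numbered 1, ACC1, CCT6, HIT1, MDJ2, NAT3 and SUL1 lost theirs. Robust eBayes ended the calls of NAT3 and SCM4, and leaving out the dye term ended those of ACC1 and SUL1. Those of CWC15, HLJ1, RPD3, RPS22B, RRD2, SSP120 and YHM1 were lost under quantile normalization alone. That scaling also made the changes smaller, to -1.004 for CWC15, -0.64 for HLJ1, 0.67 for RPD3, -0.72 for RPS22B, 0.71 for RRD2, -0.97 for SSP120 and -0.70 for YHM1. The other listed calls came to 0.58 (ACC1) to 0.84 (NAT3) for rises and -0.56 (MDJ2) to -1.30 (SCM4) for falls, each in its original direction.

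The values of most probes with early samples apart from 0 h were far smaller than 2-fold. All 3 early values lay above the 4 at 0 h in 1177 probes (19.8%) and below them in 1253 (21%). Only 10 probes were 2-fold higher and 20 were 2-fold lower at each of the 3 times, against 124 and 112 that were so at 1 or more times. The values at 0 h lie close to 0 by their construction as ratios to their own pair, which widens the set without overlap. With 3 against 4 samples, the 35 possible splits allow an exact two-sided permutation p of 0.0571 at the smallest, so no single probe was tested that way. Even this p takes the 4 samples at 0 h as separate, though they are both channels of 2 arrays.

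The few listed probes of PHO regulon genes, the targets of Pho4, were not called in either direction. Of 20 names in the list, 6 were among the probes and all 6 were tested. Of these, 0 were called or passed the adjusted p alone, against 0.957% and 314 of all 5957 probes. At a share of 0.957%, 6 probes would seldom hold a call, so the 0 tells little about the regulon. Their early changes had a median of -0.11, against 0.0014 over all probes tested. At 1, 5 and 8 h their medians were -0.27, -0.14 and 0.017.

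Among the proteins that make and store phosphate reserves, VTC4, the polyphosphate polymerase of the vacuole, read -0.33, -0.24 and -0.28 at 1, 5 and 8 h, against -0.18, 0.16, -0.09 and 0.09 at 0 h (-0.27 ± 0.156, limma adjusted p = 0.336). PHM7, a membrane protein of unclear function that responds to phosphate, read -0.84, -0.14 and -0.32, against -0.04, 0.04, 0.004 and 0.0002 at 0 h (-0.43 ± 0.199, adjusted p = 0.241). Both stood below their 0 h values at every early time, and the distance of PHM7 was largest at 1 h. PHO8, the vacuolar alkaline phosphatase, read -0.31, 0.26 and 0.31, against -0.0021, 0.02, -0.0096 and 0.01 at 0 h, on opposite sides of 0 h at 1 h and later (0.08 ± 0.185, adjusted p = 0.839).

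GIT1, a permease for glycerophosphoinositol, read -0.15, -0.15 and 0.01, against 0.06, -0.06, 0.02 and -0.02 at 0 h (-0.09 ± 0.127, limma adjusted p = 0.699). HOR2, a glycerol phosphate phosphatase, read 0.51, 0.48 and 0.09, against -0.008, 0.01, -0.05 and 0.07 at 0 h (0.36 ± 0.161, adjusted p = 0.234). GIT1 overlapped its 0 h values and HOR2 lay above them, less far at 8 h. PHO81, the kinase inhibitor that is both a regulator and a target of the pathway, read -0.23, -0.17 and 0.02, against -0.0004, 0.0034, 0.02 and -0.01 at 0 h (-0.13 ± 0.123, adjusted p = 0.568), below the 0 h range at 1 and 5 h and level with it at 8 h.

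The listed probes of signalling and low-affinity genes gave 0 calls over the early mean as well, beside 0.957% of all probes. Of 13 names 6 were listed and tested, with a median change of 0.097. PHO80, the cyclin that keeps Pho4 inactive, read -0.28, 0.31 and 0.31, against -0.0068, 0.01, 0.03 and -0.02 at 0 h (0.11 ± 0.189, limma adjusted p = 0.767). PHO88, a membrane protein linked to phosphate uptake, read -0.50, -0.49 and -0.34, against -0.08, 0.07, -0.03 and 0.04 at 0 h (-0.44 ± 0.125, adjusted p = 0.0796). PHO88 was the only 1 of the 6 below 0 over the early mean, with no early value in the 0 h range.

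PHO87, a low-affinity phosphate transporter, changed by 0.07 ± 0.127, KCS1, an inositol hexakisphosphate kinase, by 0.08 ± 0.128, and SYG1, a protein with an SPX domain, by 0.11 ± 0.126 (limma adjusted p = 0.786, 0.751 and 0.629). PHO2, the partner of Pho4, read 0.90, 0.31 and -0.13 at 1, 5 and 8 h, against 0.01, -0.007, -0.0039 and 0.0072 at 0 h. Its early mean did not pass the test (0.36 ± 0.253, limma adjusted p = 0.434), while its change with time did, as given below.

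Of all 34 lists, drawn up over phosphate, metabolism, growth and stress, 6 held a called probe, and each of these held 1. They were RPD3 among 23 tested chromatin modifiers, CCT6 among 12 heat shock proteins and chaperones, SUL1 among 10 genes of sulfate assimilation, ACC1 among 15 of fatty acid and phospholipid synthesis, CWC15 among 20 of splicing and RPS22B among 52 cytosolic ribosomal proteins. Over all 5957 probes tested 0.957% were called, and among the 1537 listed ones 6 were called higher and 10 lower. A single call in a list was thus not read as a result about that list. The counts by adjusted p alone that follow stand beside 2.45% higher and 2.82% lower over all 5957 probes, of which 2990 lay above 0.

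General stress genes mostly stood above 0, by small amounts. Of 15 tested, 12 were above 0 with a median of 0.20, against a median of 0.0014 over all probes, and 2 rose by less than 2-fold (2.45% of all probes rose). HSP12, a membrane-protecting stress protein, read 0.68, 0.81 and 0.92 at 1, 5 and 8 h, against -0.05, 0.06, -0.07 and 0.07 at 0 h, a rise of 0.80 ± 0.123 (limma adjusted p = 0.0143). TPS1, the trehalose phosphate synthase, read 0.55, 0.63 and 0.46, against 0.03, -0.02, 0.03 and -0.03 at 0 h, a rise of 0.54 ± 0.113 (limma adjusted p = 0.0339). HSP12 was higher at each later time, whereas DDR48, a DNA damage response protein in the same list, lay below 0 (-0.36, limma adjusted p = 0.197).

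Chaperone genes were mixed, with 10 of 12 below 0 and a median of -0.22. SSB1, a ribosome-bound chaperone, rose by less than 2-fold (0.81, 0.79 and 0.64 at 1, 5 and 8 h, 0.75 ± 0.126, limma adjusted p = 0.0195). STI1, a co-chaperone that joins Hsp70 to Hsp90, fell (-0.68, -0.88 and -0.45, -0.67 ± 0.142, limma adjusted p = 0.035). The members thus moved in both directions.

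In ribosome biogenesis 4 of 36 tested genes fell by less than 2-fold and 0 rose, beside 2.82% and 2.45% of all probes. These were SAS10 (-1.29, -0.87 and -0.53 at 1, 5 and 8 h, -0.90 ± 0.200), UTP6 (-0.64), ENP1 (-0.56) and REX4 (-0.54), which act in processing ribosomal RNA (limma adjusted p = 0.0406, 0.0242, 0.048 and 0.0362). The list's median was -0.061. Among cytosolic ribosomal proteins 2 rose and 4 fell, called RPS22B included, with 26 of 52 on each side of 0. RPL1B (0.93 ± 0.189) and RPS30A (0.67 ± 0.116) rose and RPL4A (-0.58 ± 0.116) fell (limma adjusted p = 0.0323, 0.0202 and 0.0304).

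Among chromatin modifiers 4 of 23 rose, called RPD3 included, and 0 fell, beside 2.45% and 2.82% of all probes. EPL1, a subunit of the NuA4 histone acetyltransferase, read 0.94, 0.74 and 0.60 at 1, 5 and 8 h (0.76 ± 0.156, limma adjusted p = 0.0336). RSC6, a subunit of the RSC remodelling complex, read 0.64, 0.79 and 0.48 (0.64 ± 0.150, limma adjusted p = 0.0452). In splicing 15 of 20 genes lay below 0 with a median of -0.19, and CWC15 alone fell past the adjusted p.

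In the iron regulon 2 of 11 genes rose and 1 fell, all by less than 2-fold, beside 2.45% and 2.82% of all probes. MRS4, an iron carrier of the mitochondrial inner membrane, read 0.98, 1.03 and 0.95 at 1, 5 and 8 h, against -0.02, 0.02, -0.0026 and 0.0058 at 0 h, a level rise of 0.98 ± 0.109 (limma adjusted p = 0.00455). FRE4, a ferric reductase, rose by 0.83 ± 0.177 and AFT2, a transcription factor of iron use, changed by -0.74 ± 0.144 (limma adjusted p = 0.0355 and 0.0291). Endosomal sorting gave 2 rises in 19 genes (2.45% over all probes), those of SNF8 (0.75 ± 0.129) and DID4 (0.58 ± 0.128), both components of ESCRT complexes (limma adjusted p = 0.0202 and 0.0395), while VPS25 of the same machinery stood at -0.43 (adjusted p = 0.115).

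Single members of other lists passed the adjusted p without reaching 2-fold. CDC28, the main cell cycle kinase, fell (-0.70 ± 0.150) and RNR2, a ribonucleotide reductase subunit, rose (0.68 ± 0.162, limma adjusted p = 0.0362 and 0.0487). HTS1, the histidyl-tRNA synthetase, rose (0.58) and TEF4, a subunit of translation elongation factor 1B, fell (-0.59, limma adjusted p = 0.0404 and 0.0344). TAF5, a subunit of the general transcription factor TFIID, fell (-0.74), and MDH3, the peroxisomal malate dehydrogenase, and MRP21, a mitochondrial ribosomal protein, rose (0.60 and 0.53, limma adjusted p = 0.0202, 0.0375 and 0.0362). No probe passed in glycolysis (10 tested), hexose transport (5), respiratory chain (12), amino acid synthesis (21), zinc (8), cell wall (16), histones (4), proteasome (11), autophagy (4), oxidative stress (7), purine and pyrimidine synthesis (10), ergosterol synthesis (10), RNA polymerases I and III (7), haploid-specific genes (3) or meiosis and sporulation (14).

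The early change as a whole became narrower from 1 to 8 h. At 1 h 101 probes were 2-fold higher and 77 were 2-fold lower than 0 h, at 5 h 42 and 56, and at 8 h 21 and 41. The median absolute log2 ratio over all 5957 tested probes was 0.261 at 1 h, 0.212 at 5 h and 0.176 at 8 h. Of these probes, 3707 (62.2%) stood nearer to 0 at 8 h than at 1 h.

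The called probes faded little over the same hours. The 20 higher probes had medians of 1.28, 1.16 and 1.07 at 1, 5 and 8 h, with 83.3% of the 1 h median left at 8 h. The 37 lower probes had medians of -1.36, -1.26 and -1.18, with 86.3% left. At 8 h 39 of the 57 (68.4%) were nearer to 0 than at 1 h, beside the 62.2% over all tested probes. Of the 57, 0 had crossed to the other side, beside 2148 of all 5957 tested probes. A call over the early mean favours probes with like values at all 3 times, so these shares are shaped by that choice.

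**Figure D2:**
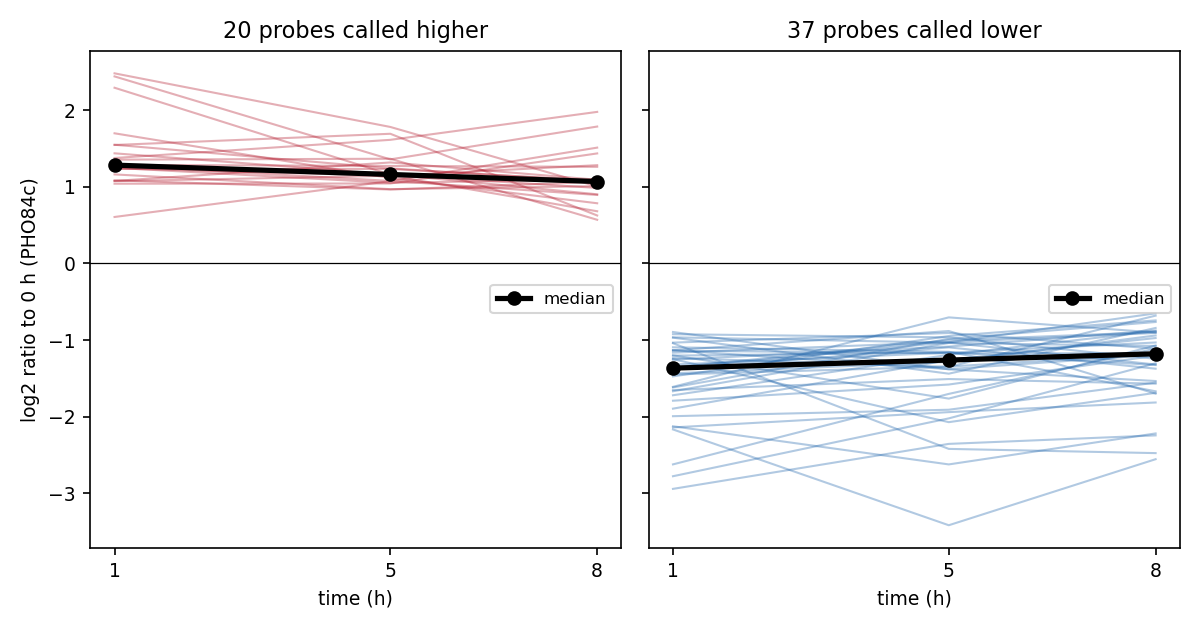
Log2 ratios to 0 h at 1, 5 and 8 h for the 20 probes called higher (left) and the 37 called lower (right) in PHO84c; thin lines are probes and the black line is the median at each time. The medians go from 1.28 at 1 h to 1.07 at 8 h on the left and from -1.36 to -1.18 on the right.

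Probes picked at 1 h alone lost far more, and rises lost more than falls. The 101 probes 2-fold higher at 1 h had medians of 1.20, 0.73 and 0.25 at 1, 5 and 8 h, so that 20.8% of the median was left. At 8 h 25 of them lay on the opposite side of 0. Over all 5957 tested probes, whose median absolute log2 ratio at 1 h was 0.261, 2148 did so. The 77 probes 2-fold lower at 1 h had medians of -1.23, -0.95 and -0.74, with 60.2% left and 7 on the opposite side. Both sets were picked on their value in the single 1 h sample, so their loss of height is a description, and the difference between rises and falls was not tested.

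The reverse pick gave the opposite picture. The 21 probes 2-fold higher at 8 h had medians of 1.07, 1.07 and 1.10, and the 41 probes 2-fold lower at 8 h had medians of -1.09, -1.16 and -1.29. At their medians, probes past 2-fold at 8 h were thus already near 2-fold at 1 h. Those picked at 5 h peaked there, with medians of 1.08, 1.15 and 0.84 for 42 rises and -1.15, -1.25 and -0.95 for 56 falls.

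**Figure D3:**
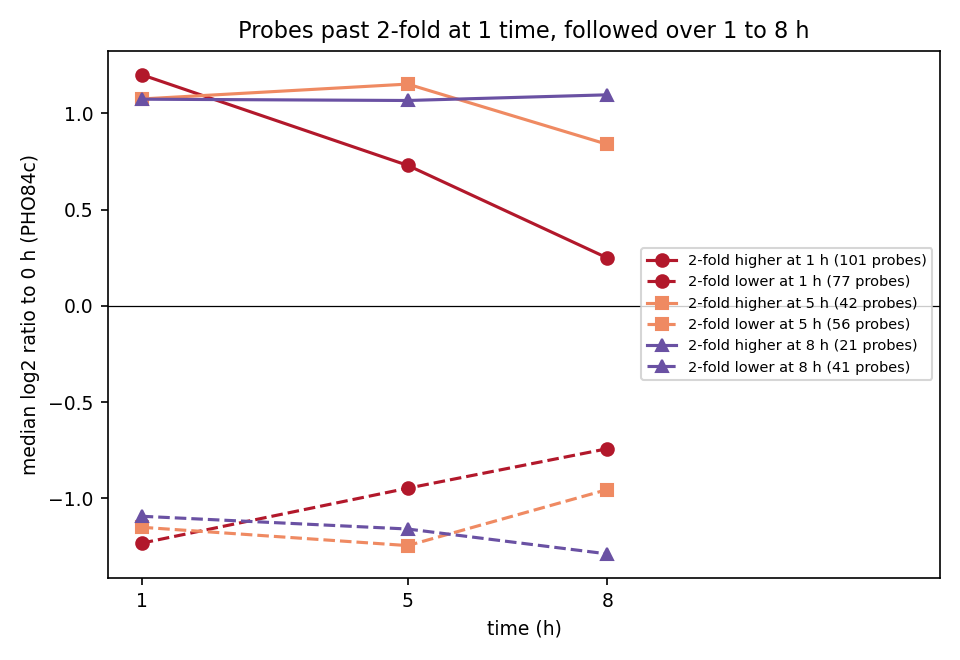
Median log2 ratios at 1, 5 and 8 h of the probes that were 2-fold higher (solid) or 2-fold lower (dashed) than 0 h at 1 h, 5 h or 8 h in PHO84c. Rises picked at 1 h drop to 0.25 at 8 h and falls picked at 1 h to -0.74, while those picked at 8 h stay near 1.07 and -1.09 at 1 h.

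Change within the early phase was tested as a line over 1, 5 and 8 h, scaled to the 7 h from first to last. It was called with a limma adjusted p under 0.05 and at least 2-fold. Of 5957 probes 29 ran upward (0.487%) and 94 downward (1.58%). Of the 94, 82 were nearer to 0 at 8 h than at 1 h and 67 had crossed 0, and of the 29, 23 were nearer and 24 had crossed. Over all 5957 tested probes 3707 were nearer and 2148 had crossed. Of these probes 5 were also called over the early mean, NAT3 and SCM4 among them. The slope fit over all 7 samples had 3 residual degrees of freedom, and only part of these came from the 3 early samples. The rest came from the samples at 0 h, which lie close to 0 by construction. The called slopes were also chosen partly on the 1 h sample. Quantile normalization left 0 called slopes (91 at an unadjusted p under 0.05, limma).

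The largest downward slopes under a name belonged to probes that were high at 1 h and below 0 at 8 h. CTF3, an outer kinetochore protein, read 1.46, 0.76 and -0.29 at 1, 5 and 8 h, against -0.08, 0.08, -0.06 and 0.06 at 0 h, a change of -1.72 ± 0.188 over 7 h (limma adjusted p = 0.0083). PRP5, an RNA helicase of the spliceosome, read 1.26, 0.47 and -0.38, against -0.07, 0.07, -0.03 and 0.03 at 0 h (-1.62 ± 0.157, adjusted p = 0.00567). BTS1, the geranylgeranyl diphosphate synthase, read 1.45, 0.56 and -0.07, against -0.07, 0.07, -0.03 and 0.04 at 0 h (-1.53 ± 0.140, adjusted p = 0.00567). All 3 lost height at each step. SEC3, a subunit of the exocyst, held 1.18, 0.93 and -0.40, against -0.06, 0.06, -0.08 and 0.08 at 0 h, with most of its drop after 5 h (-1.52 ± 0.308, limma adjusted p = 0.0336).

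SCM4 differed from these, since its slope of -1.49 ± 0.282 (limma adjusted p = 0.0282) deepened a fall. NAT3 sloped by -1.34 ± 0.218 (adjusted p = 0.0192) and kept 43% of its 1 h value. PHO2 sloped by -1.04 ± 0.125 (adjusted p = 0.0101), with its 3 early values stepping down across 0. It was the 1 called slope among the 12 probes of both phosphate lists, beside 0.487% upward and 1.58% downward over all 5957 probes. This single call was not read as a result about those lists.

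Upward slopes were led by probes that were low at 1 h. LAS17, the yeast homologue of WASP that promotes actin assembly, read -2.17, 0.11 and 0.21, against -0.06, 0.06, -0.06 and 0.07 at 0 h, a change of 2.47 ± 0.412 over 7 h (limma adjusted p = 0.0209). XDJ1, a chaperone of the DnaJ family, read -2.30, -0.91 and -0.29, against -0.04, 0.05, -0.08 and 0.08 at 0 h (2.03 ± 0.174, adjusted p = 0.00567). LAS17 had returned to about 0 by 5 h, whereas XDJ1 kept 12.6% of its fall at 8 h. CLB4, a B-type cyclin, read -1.29, -0.69 and 0.19, against 0.16, -0.17, 0.18 and -0.19 at 0 h (1.45 ± 0.210, adjusted p = 0.0155). LAS1, which cuts pre-ribosomal RNA, read -0.54, 0.37 and 0.58, against 0.0068, -0.006, 0.0026 and -4.6e-05 at 0 h (1.14 ± 0.169, adjusted p = 0.016), and SNU23, a protein of the spliceosome's tri-snRNP, read -0.69, -0.12 and 0.45, against 0.03, -0.02, 0.04 and -0.03 at 0 h (1.13 ± 0.131, adjusted p = 0.00906). All 3 ended above 0.

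**Figure D4:**
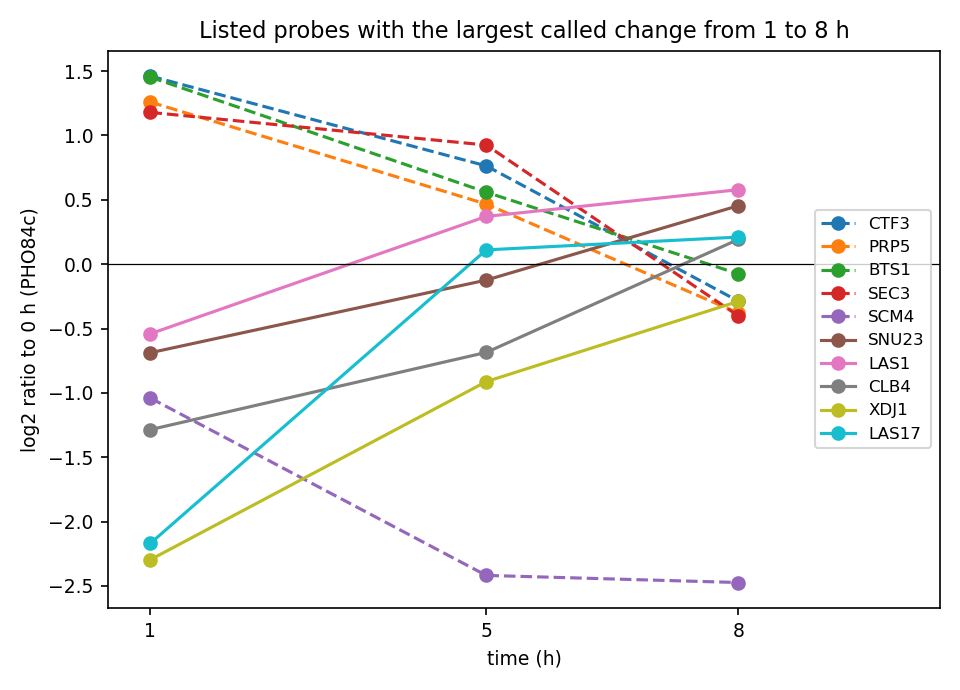
Log2 ratios to 0 h at 1, 5 and 8 h for the listed probes with the largest called slopes in PHO84c, 5 downward (dashed) and 5 upward (solid). Apart from SCM4, which goes from -1.04 to -2.47, the downward lines start above 1 and end below 0, and the upward lines start below 0.

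Most of the called falls and rises of PHO84c had the same direction in WT. The same fit in WT called 30 probes higher (0.49%) and 59 lower (0.963%) of 6125. Of the 37 falls in PHO84c 24 were also called in WT, which is 64.9% of the PHO84c falls and 40.7% of the WT falls. Of the 20 rises 6 were shared, 30% of the PHO84c rises and 20% of the WT rises. By direction alone, 16 of the 20 rises lay above 0 in WT and 33 of the 37 falls below 0. A strain difference was called for 0 of these rises and 4 of these falls. The strains share no samples, but the array block number at each time was the same in both, so an effect of block on single probes could be shared.

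Among listed falls, CWC15 changed by -1.82 ± 0.149 in PHO84c and -2.44 ± 0.132 in WT, and SSP120 by -1.67 ± 0.217 in PHO84c and -2.55 ± 0.140 in WT. SCM4 changed by -1.98 ± 0.380 in PHO84c and -2.24 ± 0.209 in WT. HIT1 and MDJ2 were not called in WT (-1.07 in PHO84c and -0.41 in WT, -1.02 in PHO84c and -0.59 in WT), and neither difference between strains passed (limma adjusted p = 0.967 and 0.967). Among rises, RPD3 stood at 1.18 in PHO84c and 1.31 in WT. RRD2 stood at 1.17 in PHO84c and 0.09 in WT, a difference of 1.08 ± 0.232 that did not pass (limma adjusted p = 0.201).

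The strain difference itself, the PHO84c early change minus the WT early change, was called in few probes. Of 5864 tested, 1 was higher (0.0171%) and 7 were lower (0.119%) in PHO84c, and 309 had an unadjusted p under 0.05. The 7 included 4 of the 37 falls of PHO84c. Early samples of the strains share their times and block numbers, and with time as a block limma called 16 differences, 5 higher and 11 lower (559 at an unadjusted p under 0.05), the 8 above among them. It called 4 without the WT sample at 1 h, 14 without that at 5 h and 0 under quantile normalization (35 at that p). GAS4, a glucanosyltransferase of spore wall assembly, read 0.16, -0.44 and -0.20 at 1, 5 and 8 h in PHO84c and 1.73, 1.84 and 2.21 in WT. Its early change was -0.16 ± 0.172 in PHO84c and 1.88 ± 0.176 in WT, a difference of -2.04 ± 0.264 (limma adjusted p = 0.00762). SIP3, a protein of intracellular sterol transport, read -1.51, -0.78 and -0.54 in PHO84c and 1.18, 1.14 and 0.93 in WT. The changes were -0.95 ± 0.247 in PHO84c and 1.13 ± 0.131 in WT, a difference of -2.07 ± 0.309 (limma adjusted p = 0.0244). In both genes every early value in PHO84c was below every one in WT. Neither was called within PHO84c alone. Without the WT sample at 1 h the SIP3 difference no longer passed (adjusted p = 0.0750).

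**Figure D5:**
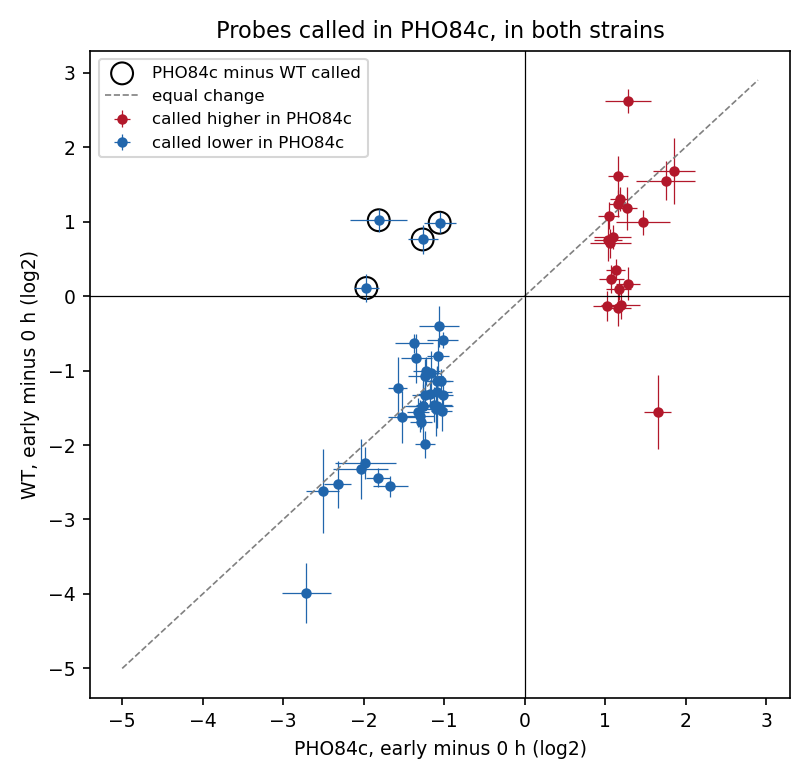
Early change minus 0 h (log2) in PHO84c on the horizontal axis and in WT on the vertical axis for the probes called in PHO84c, higher in red and lower in blue, with standard errors of the limma fits; the dashed line marks equal change. Of the 37 falls 33 lie below 0 in WT too, and black rings mark the 4 with a called strain difference.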

How the data were processed

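RNA of the 7 PHO84c samples, and of 7 WT samples for comparison, was amplified, labelled by a low-input Agilent protocol and hybridised to dual-colour arrays read with SpotReader, per the labels' protocols. The sources used here name neither the background correction nor the normalization. The authors' deposited values were read as log2 ratios. Base, reference and centring are inferred, because each pair of PHO84c samples at 0 h with the same dye had linear values averaging 1.0016 (Cy3) and 1.00257 (Cy5). Such pairs are mirror images (r = -0.904 and -0.871 across probes), and the error of the Cy3 pair stays in every early value.

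Changes were fitted across all probes with limma 3.58.1 (R 4.3.3, lmFit and eBayes), with a dye term and with arrays as random blocks (correlation 0.938, 4 residual degrees of freedom). A call took a Benjamini-Hochberg adjusted p under 0.05, adjusted over every feature tested, and a change of 2-fold. Probes needed a value in all 3 early and both Cy3 samples at 0 h, which left out 297 of 6254 features (2 probes listed as FDH2 were averaged). All 1607 names occur in the R64 reference table. There were 0 columns of other series. Since no label speaks of separate cultures, the p-values cover the spread between these samples alone, and that spread may be technical.

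The samples, the 34 gene lists and the naming rule were chosen with earlier results of these data known. Named genes are the 15 largest called rises and falls, all members of both phosphate lists, up to 4 per other list, the 5 largest called slopes and 8 largest strain differences each way, and 2 unnamed probes each way. Alternatives changed the array block, dye term, scaling, missing-value filter, eBayes prior, fold minimum, time scale and samples used. In tests on simulated data with 100 probes changed by 1.5 (log2), 98% were called in the early comparison, 89% for slopes and 82% for strain differences, with 2, 0 and 1 false calls. Changes of 0.5 were called in 1%, 1% and 0%. The simulated noise followed the fitted model, with equal spread at 0 h and early before centring. The early and strain changes were the same at every early time. The deposited values differ in both respects, so these shares do not measure the errors among the calls above.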

Additional observations from a re-analysis of the deposited data

Results flagged for a closer look

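Between strains, 2 listed probes had early changes that differed by limma's test of the difference itself. GAS4 changed by -0.16 in PHO84c and 1.88 in WT, a difference of -2.04 ± 0.264 (adjusted p = 0.00762), and was lower in 3 of 3 PHO84c times than at the same time in WT. SIP3 changed by -0.95 in PHO84c and 1.13 in WT, a difference of -2.07 ± 0.309 (adjusted p = 0.0244), again lower in 3 of 3. Whether 1 sample at 0 h stood apart from the other 3 could not be judged, because same-dye pairs at 0 h appear centred on their own mean.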

How the results depend on the processing

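Against 57 calls, the early comparison gave 50 to 60 under every alternative run except those given here. The totals hide exchange, since 57 were called without the 1 h sample but 44 of them were among the original 57, and 50 and 60 without the 0 h samples numbered 1 and 2 held 47 and 52 of these. Quantile normalization gave 0 calls for the early mean, 0 for slopes and 0 for the strain difference (321, 91 and 35 probes at an unadjusted p under 0.05, limma). By construction it sets all samples to the same averaged distribution, which widens the 0 h samples and narrows the early ones. A 1.5-fold minimum gave 254 calls for the early mean and 485 for slopes, and log2 of hours gave 76 slopes. Leaving out 1 sample at a time gave 34 (without 5 h) to 98 calls (without 8 h) for the early mean, 120 to 123 for slopes (only samples at 0 h were left out there, none of the 3 early ones that set the slope), and 4 (without WT at 1 h) to 14 (without WT at 5 h) for the strain difference. Time as a block, which pairs the early samples of the strains, gave 16 strain differences, against 8. Single slopes were followed only for the 10 largest under a name, so those of NAT3 and PHO2 were not. Among these 10, quantile normalization aside, LAS17 lost its call with robust eBayes and SEC3 with log2 of hours. Of 2394 values of single probes under alternatives, 2315 were counted as unchanged, 69 lost a call, 7 gained one, 3 moved without a call and 0 called ones reversed. Uncalled values that changed sign but moved by less than their standard error were counted as unchanged. For 8 h minus 1 h the array correlation of the early fit was used, as none could be estimated. No paired analysis was possible because, for early against 0 h, the labels give early samples no replicate numbers. Between strains, the block on time above is the paired fit.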

Other observations

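Probe 15377, which has no listed name and was chosen after its values were seen, moved in opposite directions in the strains. It read 1.38, 1.61 and 1.98 at 1, 5 and 8 h in PHO84c and -0.99, -2.36 and -0.99 in WT. The strain difference of 3.21 ± 0.581 did not pass (limma adjusted p = 0.0576), and its WT samples at 0 h ranged from -0.80 to 0.74. Probe 7071, also without a listed name, had the largest called strain difference, -2.83 ± 0.441 (limma adjusted p = 0.0288). Its early change was -1.81 ± 0.353 in PHO84c and 1.02 ± 0.157 in WT, called lower in PHO84c and higher in WT.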
